A study of Rattus norvegicus with 12 samples.

Results

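The early stage of esophageal tumor development was compared with normal esophagus in rats given N-nitrosomethylbenzylamine (NMBA). The comparison sets the 3 samples titled NMBA wk6 against the 3 samples titled Control, 6 of the 12 samples in all, and was read across 31042 probe sets, every probe set of the array except its 57 controls. The week 6 rats received NMBA at 0.3 mg per kg body weight in subcutaneous injections of 0.2 ml, 3 times per week for 5 weeks. The control rats received the same volume of the solvent, dimethyl sulfoxide in water, on the same schedule. The other 6 samples, 3 at week 15 and 3 at week 29 after the same NMBA course, entered the estimate of the spread. Neither strain, sex and age nor the sampling week of the controls is stated in the labels. The titles give week 6, and another label counts those weeks from the NMBA treatment, so the time from the last injection is not known. The labels place 3 rats in a cage but do not tie samples to cages or animals, so p-values reflect sample-to-sample spread only, which may be technical.

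NMBA is a nitrosamine that the rat esophagus activates through cytochromes P450 to a species that methylates DNA. The damaged tissue is a stratified squamous epithelium, in which basal keratinocytes divide, move up, switch to differentiation keratins and build a cornified envelope. Beneath it lie blood vessels, immune cells and connective tissue, and the rat esophagus has an outer coat of striated (skeletal) muscle along its length. Per the labels' protocols, the submucosal and muscle layers were stripped from part of each esophagus before RNA extraction.

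Keratinocyte genes were bright in all 6 samples, with a log2 signal of at least 12.74 for the basal keratin gene Krt14 and at least 13.37 for the differentiation keratin gene Krt13. Skeletal muscle was bright as well. Acta1, skeletal muscle actin, lay between 14.63 and 14.71, at the top of the table's range. A muscle score, the mean log2 signal of 58 contractile genes, was 11.20, 11.64 and 11.54 in the controls and 12.10, 12.04 and 12.12 at week 6 (11.46 ± 0.23 against 12.09 ± 0.04, SD, n = 3 each). All 3 week 6 samples thus lay above all 3 controls in muscle signal. The score of 17 pan-epithelial genes ran the other way, at 9.34, 9.26 and 9.07 in the controls and 8.64, 8.43 and 8.62 at week 6. The signal of the 3′ minus the 5′ GAPDH control probe sets, which is larger where RNA is degraded, was 0.40 ± 0.16 in controls and 0.11 ± 0.04 at week 6, again without overlap. In RNA from whole tissue, fewer cells of a type and less RNA per cell cannot be told apart. Muscle content, RNA integrity and treatment moved together. Each group of genes is therefore given below with its muscle-adjusted change, the week 6 minus control difference with the muscle score as a covariate. That fit took 1 slope per probe set from all 12 arrays. Within groups the score varied most at week 15 (SD 0.8), so the slope rested mostly on those samples and little on the 6 compared.

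At week 6, limma called 2342 of 31042 probe sets (7.54%) at an adjusted p under 0.05, 1585 higher (5.11%) and 757 lower (2.44%). With 1 probe set standing for each gene, 1256 of 14217 genes (8.83%) were called, 721 higher (5.07%) and 535 lower (3.76%). Most changes were small: the median was 0.55 on the log2 scale (1.46-fold) among genes called higher and -0.58 among genes called lower. Only 47 genes called higher and 20 called lower changed at least 2-fold. The 3 week 6 values lay clear of the 3 control values, without overlap, in 6071 genes (42.7%), 2901 higher (20.4%) and 3170 lower (22.3%). A gene whose groups do not overlap was therefore common on these arrays.

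The number of calls depended on which arrays entered the fit. Leaving out control replicate 1 or 3 left 3 and 1 calls, and leaving out week 6 replicate 1, 2 or 3 left 57, 1 and 3. The sign of all 2342 changes was kept in each of these fits. Without the spread-out week 15 arrays the count was 4028, and leaving out each compared array in turn from that fit gave 1225 to 3718 calls. In the fit with the muscle score 0 probe sets were called and 5420 had an unadjusted p under 0.05. Each of the 1585 probe sets called higher was still higher, and each of the 757 called lower still lower, in that fit. Their median changes were then 0.49 and -0.46. In a fit of the 6 compared arrays alone with the muscle score, added after seeing the data, 2191 of the 2342 calls kept their sign. With the GAPDH value as covariate 8 probe sets were called. All 205 called genes among those picked by the naming rule given with the processing kept their sign in that fit. The change was more than 1.5 times smaller in 60 of them, and 1 was still called.

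**Figure D1:**
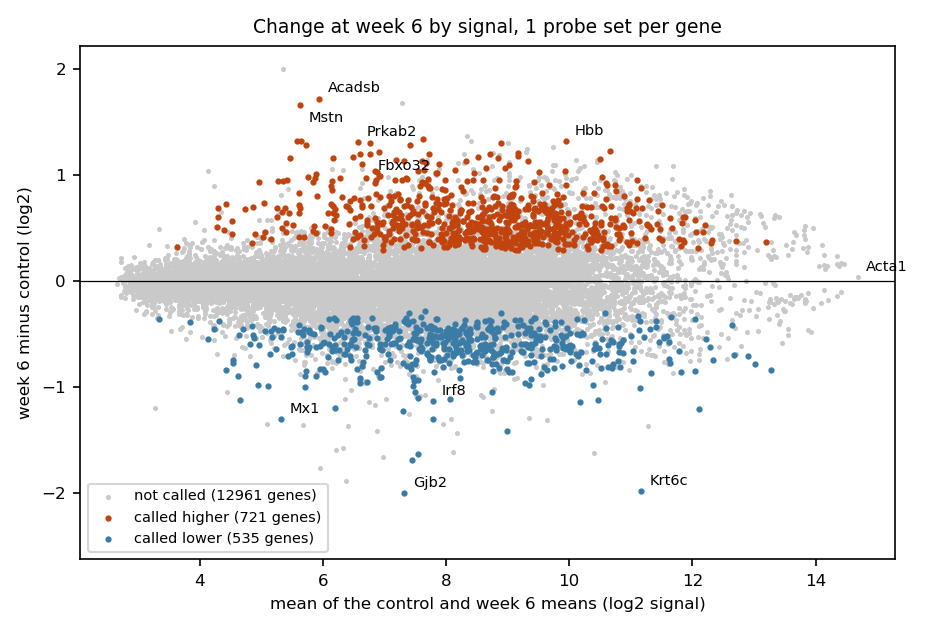
Each point is 1 gene. The horizontal axis is the mean of its control and week 6 log2 signals, the vertical axis its week 6 minus control difference (log2), and colour marks the 721 genes called higher and the 535 called lower by limma at an adjusted p under 0.05. Calls in both directions occur over most of the signal range, Gjb2 and Krt6c lie lowest among the calls, Acadsb and Mstn highest, and Acta1, the brightest gene labelled, lies near 0.

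**Figure D2:**
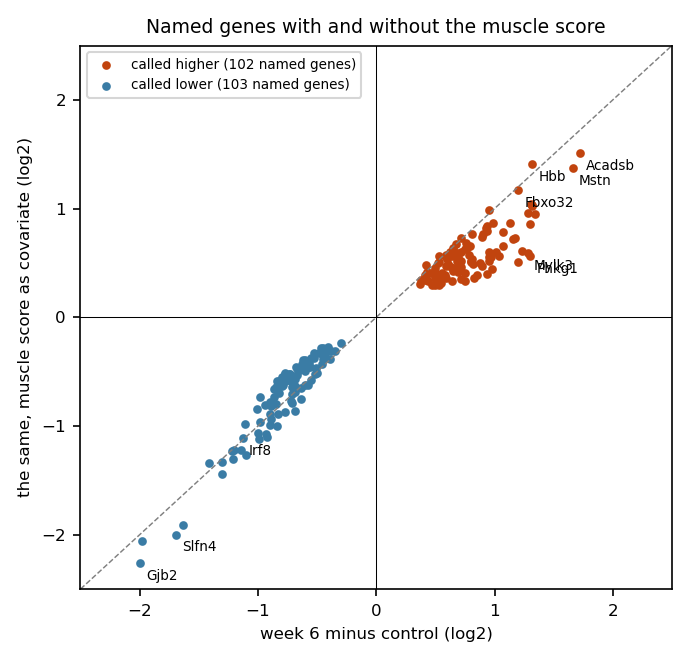
Each point is 1 of the 205 called genes named by rule, with its week 6 minus control difference as fitted on the horizontal axis and with the muscle score as covariate on the vertical axis (both log2). All points keep their sign. Hbb and Fbxo32 lie near the dashed line of equal values, Phkg1 and Mylk3 well below it, and Gjb2 and Slfn4 fall further with the covariate.

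Genes were read in 61 lists that cover 2808 genes. In the fit of all 12 arrays, the lists with the largest share of members called higher were those of branched-chain amino acid breakdown, the tricarboxylic acid cycle and fatty acid oxidation. Those with the largest share called lower were the pan-epithelial, type I interferon, stress keratin, tight junction, interferon-gamma, basal keratinocyte and squamous differentiation lists. Beside each list stands its median, to be read against the median of all genes, -0.03.

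**Figure D3:**
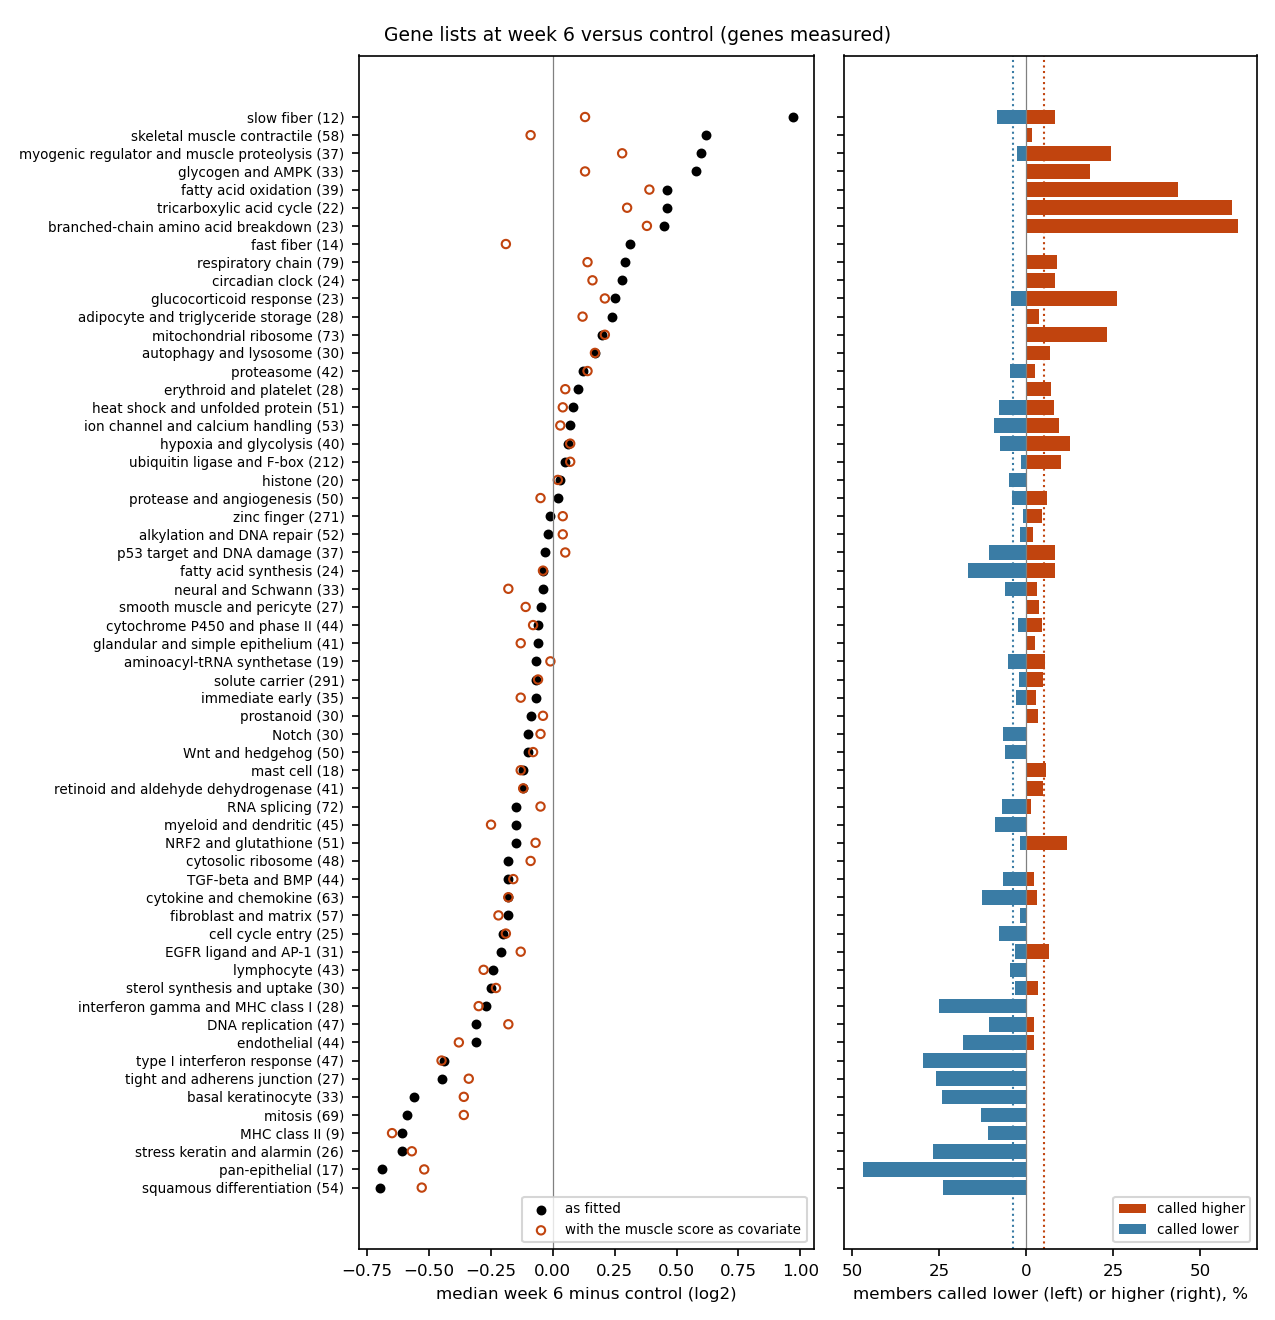
Left, the median week 6 minus control difference (log2) of each gene list with at least 9 members (number of genes in brackets), as fitted (black) and with the muscle score as covariate (open). Right, the percentage of members called lower (blue, left) and higher (red, right), with dotted lines at the shares among all genes, 3.76% and 5.07%. The contractile and fiber lists move to between -0.19 and 0.13 with the covariate and the myogenic regulator list to 0.28, while the medians of the interferon, mitochondrial ribosome and fatty acid oxidation lists change little.

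The lowest adjusted p belonged to Irf8, the transcription factor that directs the development of dendritic cells and monocytes. Its log2 signal was 8.51, 8.32 and 8.24 in the controls and 7.30, 7.10 and 7.30 at week 6. Every week 6 sample lay below every control, and the change was -1.13 ± 0.10 (SE, n = 3 per group, adjusted p = 0.00355), or 2.18-fold lower. Irf8 was the only probe set called in each of the 6 fits that left out a compared array, with changes between -1.18 and -1.05. The muscle-adjusted change was -1.11 (adjusted p = 0.0512), and with the GAPDH value as covariate it was -1.09 (adjusted p = 0.0488). Its size was thus nearly the same beside either measure.

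Some other genes of antigen-presenting cells fell with it. Itgax, the CD11c integrin of dendritic cells, was 6.25, 6.31 and 6.06 in the controls and 4.92, 5.09 and 5.59 at week 6, a change of -1.0 ± 0.15 (adjusted p = 0.0164). Clec9a, a receptor of cross-presenting dendritic cells, changed by -0.89 ± 0.20 (adjusted p = 0.0274), from 5.28, 5.05 and 4.86 to 3.87, 3.99 and 4.64. Mpeg1, a pore-forming protein of macrophages and dendritic cells, fell by 1.11. In week 6 replicate 3 Itgax and Clec9a were higher than in the other week 6 samples, yet below every control. RT1-Da, an MHC class II alpha chain that presents peptides to helper T cells, was 11.32, 10.42 and 10.48 in the controls and 9.30, 9.32 and 10.19 at week 6, a fall of 1.14 (adjusted p = 0.0349). Of 45 myeloid and dendritic genes 4 were called lower and 0 higher, against 3.76% and 5.07% of all genes. In sign, 31 were below 0, against 7846 of all 14217 genes. Without overlap 13 were lower and 0 higher, against 22.3% and 20.4% of all genes. The list median was -0.15 (0.06 with the GAPDH value as covariate). Some macrophage genes, named here after their values were seen, were near 0 and were not called: the complement genes C1qa (0.02) and C1qb (0.09), Adgre1 (-0.04) and Csf1r (0.04). In the MHC class II list 1 of 9 genes was called lower, with a median of -0.61. The muscle-adjusted changes of Itgax, Clec9a, Mpeg1 and RT1-Da were -1.06, -0.94, -0.98 and -1.22, and the medians of the myeloid and MHC class II lists were -0.25 and -0.65, so these falls were no smaller beside the muscle score, apart from that of Mpeg1. Mpeg1 was at -0.67 and the MHC class II median at -0.36 with the GAPDH value.

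Interferon-induced genes formed a second group that was mostly lower. Interferons act through STAT and IRF factors on short promoter elements, and the genes they switch on encode antiviral proteins, guanylate-binding proteins and parts of the antigen-presentation machinery. Of 47 type I interferon genes 14 were called lower and 0 higher, 44 were below 0 and the median was -0.44. Slfn4, a member of the Schlafen family, was 7.47, 8.48 and 8.92 in the controls and 6.68, 6.57 and 6.55 at week 6, a fall of 1.69 ± 0.39 (adjusted p = 0.029). Its second probe set was at -0.30 and was not called. The antiviral GTPase gene Mx1 was 5.67, 5.31 and 6.94 against 4.47, 4.85 and 4.70, a fall of 1.30. Control replicate 3 was the highest of the 6 samples for both genes, and the week 6 samples were close together. Rsad2, the antiviral protein viperin, stood at 5.12, 5.45 and 6.24 against 4.75, 4.54 and 4.56, a fall of 0.99, and the ubiquitin-like modifier gene Isg15 at 7.62, 7.70 and 8.95 against 6.86, 6.97 and 7.14, a fall of 1.1. Lgals3bp, a secreted glycoprotein that binds galectin 3, fell by 0.93 (adjusted p = 0.0209). The list score was 7.36, 7.31 and 7.68 in the controls and 6.96, 6.97 and 7.04 at week 6, so the groups stayed apart without control replicate 3, and leaving out each of the 6 samples in turn gave list medians from -0.52 to -0.28. Without control replicate 3 the change of Mx1 was -0.82 and that of Isg15 -0.67, and in the fit of the 6 compared arrays alone neither was called (adjusted p = 0.055 and 0.0599). The list's muscle-adjusted median was -0.45, and the changes of Slfn4, Mx1, Rsad2, Isg15 and Lgals3bp were -2.00, -1.44, -1.12, -1.27 and -1.07, each as large beside the muscle score as without it. With the GAPDH value as covariate the list median was -0.25, Mx1 was at -0.86 and Isg15 at -0.76, and the part of RNA integrity in this group was not tested beyond that.

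Promoters of this group were examined in RefSeq's rat annotation (GRCr8), in windows from 250 bases before to 50 bases after each gene's start, on both strands. The letters GAAANNGAAA, the core of the interferon-stimulated response element, occurred in 19 of 37 promoters of the type I list (51.4%), against 1312 of 33469 promoters of all genes (3.92%). They occurred in 5 of 12 promoters of members called lower and in 14 of 25 of members that were not called, so the letters did not separate the members that fell from the rest. The 5 are shown because they hold the element within genes that fell. Each line gives 80 bases of the promoter, 5′ to 3′ on the gene's strand and upstream of its start, with the match in capitals. A match describes the letters and shows no binding.
Rsad2: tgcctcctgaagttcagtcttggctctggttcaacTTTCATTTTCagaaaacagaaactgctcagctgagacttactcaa
Lgals3bp: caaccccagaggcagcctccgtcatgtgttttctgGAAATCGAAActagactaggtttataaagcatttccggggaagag
Isg20: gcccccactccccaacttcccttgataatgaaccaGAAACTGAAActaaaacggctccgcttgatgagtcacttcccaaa
Irf7: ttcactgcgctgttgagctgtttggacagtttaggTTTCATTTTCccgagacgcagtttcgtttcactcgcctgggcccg
Ifitm3: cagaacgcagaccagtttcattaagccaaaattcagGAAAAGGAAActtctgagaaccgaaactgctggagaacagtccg

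These windows lie at chr6:48788223-48788302 (minus strand) for Rsad2, chr10:104127854-104127933 (minus) for Lgals3bp, chr1:142239932-142240011 (plus) for Isg20, chr1:205800048-205800127 (minus) for Irf7 and chr1:205541759-205541838 (minus) for Ifitm3. In Rsad2 and Irf7 the element reads on the opposite strand of the gene. Isg20, an exonuclease, Irf7, the factor that amplifies interferon production, and Ifitm3, a membrane protein that blocks virus entry, were called lower at -0.69, -0.73 and -0.52 and were chosen for these letters after their values were seen. The promoters of Mx1 and Slfn4, which fell further, held no match to these letters in this window.

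Interferon-gamma and antigen-processing genes were mostly lower in the same samples. Of 28 genes on this list 7 were called lower and 0 higher, with a median of -0.27 and a muscle-adjusted median of -0.30. The guanylate-binding protein gene Gbp7 was 7.95, 7.5 and 8.31 in the controls and 6.92, 6.97 and 7.16 at week 6, a fall of 0.90 (adjusted p = 0.0285). Gbp4 changed by -0.77, the immunoproteasome subunits Psmb9 and Psmb8 by -0.72 and -0.58, and Cxcl9, a chemokine that attracts T cells, by -0.69 (adjusted p between 0.021 and 0.0309). Cxcr3, the receptor for Cxcl9 on T cells, fell by 0.60. In the lymphocyte list 2 of 43 genes were called lower, Gimap4 (-0.52) and Gimap5 (-0.50), which encode GTPases of lymphocytes, and the list median was -0.24. That share was little above the 3.76% of all genes called lower. The muscle-adjusted changes of Gbp7, Gbp4, Psmb9, Cxcl9 and Gimap4 were -0.99, -0.87, -0.77, -0.86 and -0.52. With the GAPDH value as covariate the medians were -0.14 for the interferon-gamma list and -0.16 for the lymphocyte list, and Gbp7 was at -0.51.

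**Figure D4:**
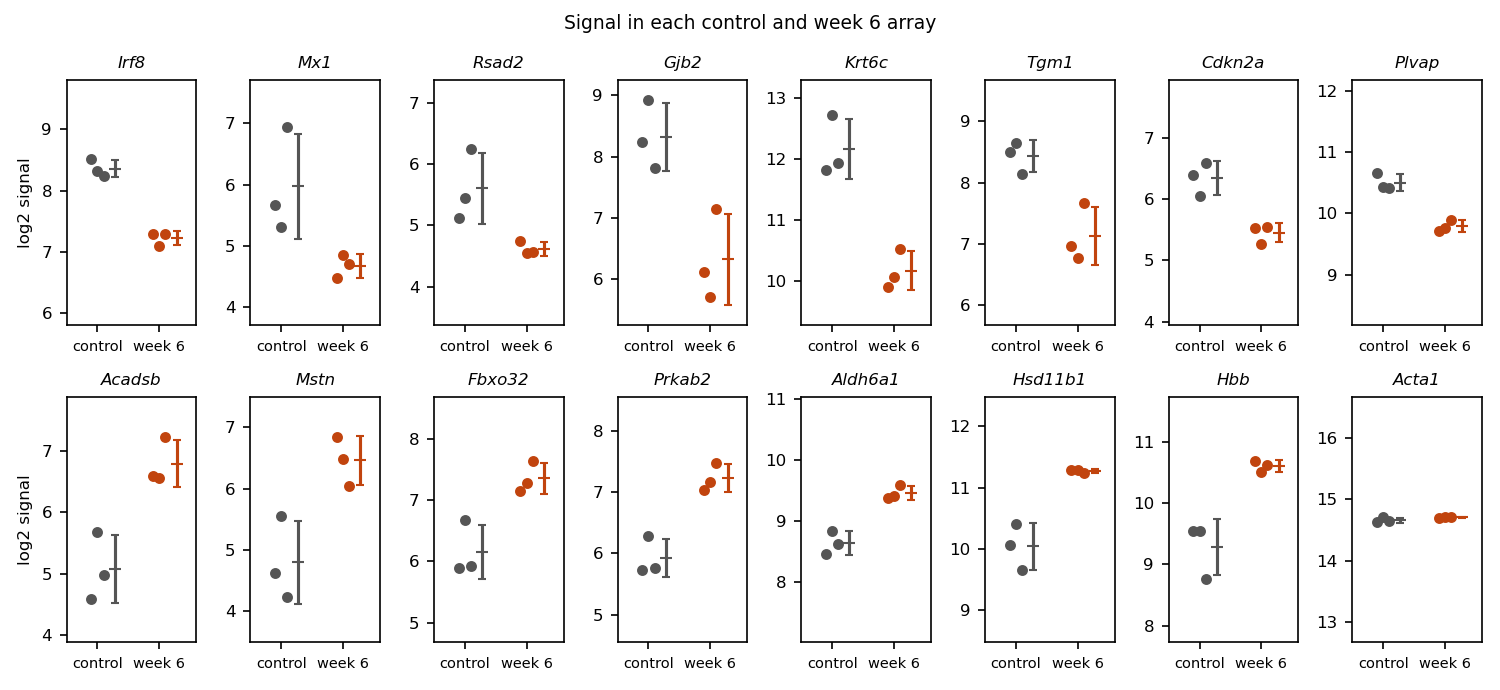
Log2 signal of 16 genes in the 3 control (grey) and 3 week 6 (red) samples, with the mean and SD of each group beside the points. Each panel spans 4 log2 units. The groups do not overlap in any panel except that of Acta1, whose values lie between 14.63 and 14.71.

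Genes of the squamous differentiation program were mostly lower at week 6. Of 54 members 13 were called lower and 0 higher, 52 were below 0 and the median was -0.70 (-0.86 with the GAPDH value). Gjb2, the gap junction protein connexin 26, showed the largest fall of any called gene, from 8.24, 8.92 and 7.81 to 6.12, 5.71 and 7.15 (-2.00 ± 0.51, 4.00-fold lower, adjusted p = 0.0378). Tgm1, the transglutaminase that cross-links the cornified envelope, was 8.5, 8.65 and 8.14 against 6.96, 6.77 and 7.67 (-1.30 ± 0.32, adjusted p = 0.0349). Week 6 replicate 3 was the highest of the week 6 samples in both, and still below all controls. The kallikrein proteases Klk10 and Klk8, a family that includes the enzymes by which surface cells are shed, fell by 1.20 and 0.94, and the envelope protein gene Scel, sciellin, by 0.98. The major keratin of differentiating cells moved less: Krt13 was 14.36, 13.95 and 14.19 against 13.82, 13.37 and 13.87 (-0.48 ± 0.19, adjusted p = 0.128) and was not called. The list score was 8.69 ± 0.16 in controls and 7.96 ± 0.26 at week 6. Muscle-adjusted, the median was -0.53, and Gjb2, Tgm1, Klk10, Klk8, Scel and Krt13 changed by -2.26, -1.33, -1.22, -0.81, -0.73 and -0.40.

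Stress-associated keratin and alarmin genes were mostly lower too. In this list 7 of 26 genes were called lower and 0 higher, with a median of -0.61 and a muscle-adjusted median of -0.57. Krt6c, a keratin 6 gene of the kind induced in injured epithelium, was 11.82, 12.72 and 11.94 in the controls and 9.91, 10.08 and 10.53 at week 6 (-1.98 ± 0.54, 3.95-fold lower, adjusted p = 0.0461). Krt6 genes are near-identical copies, so their probe sets may share signal. Serpinb2, plasminogen activator inhibitor 2, stood at 9.67, 9.79 and 9.65 against 8.41, 7.84 and 8.63, a fall of 1.41 ± 0.31 (adjusted p = 0.0261). The SD of the controls was 0.08 for this gene. Anxa1, a phospholipid-binding mediator that limits inflammation, fell by 1.21 (adjusted p = 0.0255), Serpinb11 and Serpinb10, further members of the same inhibitor family, by 1.22 and 1.01, and S100a14, a calcium-binding protein of epithelia, by 0.86. Beside the muscle score these changes were -2.06 for Krt6c, -1.34 for Serpinb2, -1.30 for Anxa1, -1.23 for Serpinb11, -0.84 for Serpinb10 and -0.66 for S100a14. Upk3bl1, an uroplakin-like gene, was 8.0, 9.30 and 7.79 against 6.51, 6.90 and 6.78 and fell by 1.63 (muscle-adjusted -1.91).

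Genes that mark epithelial cells as such, and their junctions and basal layer, were mostly lower as well. All 17 pan-epithelial genes were below 0, 8 were called lower and 15 had no overlap between groups (median -0.69, muscle-adjusted -0.52). Spint1, an inhibitor of membrane proteases, changed by -0.90 ± 0.18 (adjusted p = 0.0231), the lipoprotein receptor gene Lsr by -0.86, the adhesion protein E-cadherin, Cdh1, by -0.82, and Spint2 and its target protease gene St14, matriptase, by -0.75 and -0.72. A second probe set of Cdh1 was at 0.13, so the gene's probe sets disagree. Of 27 tight and adherens junction genes 7 were called lower, among them the barrier proteins Ocln, occludin (-0.71), Tjp3 (-0.71) and F11r (-0.61) and the adhesion protein gene Nectin4 (-0.62), and the median was -0.45. In the basal keratinocyte list 8 of 33 genes were called lower, with a median of -0.56 (muscle-adjusted -0.36). Krt14 was 13.82, 13.66 and 13.61 against 12.89, 12.94 and 12.74, a fall of 0.84 ± 0.23 (adjusted p = 0.0489). Igfbp2, an insulin-like growth factor binding protein, fell by 0.85, the forkhead factor gene Foxe1 by 0.83 and the growth factor receptor gene Fgfr3 by 0.79. Muscle-adjusted changes were -0.78 for Spint1, -0.73 for Lsr, -0.59 for Cdh1, -0.64 for Ocln, -0.67 for Krt14, -0.64 for Igfbp2, -0.89 for Foxe1 and -0.62 for Fgfr3.

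The epithelial lists were lower together, and scaling the arrays to the pan-epithelial list changes the sign of smaller falls. Subtracting each array's pan-epithelial score adds 0.66 to every change and moves the median of all probe sets from -0.02 to 0.64, so changes relative to that median stay as given. Under this scaling 21623 probe sets were called higher and 25 lower. The 42 named genes with falls smaller than 0.66 then lay above 0, Krt13 at 0.18 among them, whereas Gjb2, Krt6c and Slfn4 were still called lower, at -1.34, -1.33 and -1.03.

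Genes of cell division were lower in nearly every case, but few passed the test. Of 69 mitosis genes 68 were below 0, 64 had no overlap between groups and 9 were called lower, with a median of -0.59. The score was 7.91, 7.88 and 7.81 in the controls and 7.26, 7.30 and 7.31 at week 6, with an SD of 0.05 or less in both groups. The kinesin gene Kif18b was 7.67, 7.87 and 7.72 against 7.0, 6.94 and 6.93 (-0.80 ± 0.20, adjusted p = 0.0366). The mitotic kinase gene Melk fell by 0.77, Birc5, survivin, a subunit of the complex that corrects chromosome attachment, by 0.73, Pttg1, the securin that restrains sister separation, by 0.68 and the centromere protein gene Cenpn by 0.60. Mki67, the Ki-67 proliferation antigen, was 9.68, 9.68 and 9.35 against 8.66, 8.76 and 8.53, a difference of -0.92 ± 0.28 that was not called (adjusted p = 0.0614). Without the week 15 arrays, 27 of the 69 were called lower. The fit of the 6 compared arrays alone, which called 4391 probe sets, called 60 of the 69 lower. Mki67 had an adjusted p of 0.0154 in that fit. In the DNA replication list 5 of 47 genes were called lower and 1 higher, with a median of -0.31. E2f8 (-0.62), the replicative helicase gene Cdc45 (-0.58), the thymidylate synthase gene Tyms (-0.53), the maintenance methyltransferase gene Dnmt1 (-0.45) and Mcm10 (-0.43) were those called lower. Beside the muscle score these changes were smaller: the medians were -0.36 for mitosis and -0.18 for DNA replication, and Kif18b, Melk, Birc5 and Mki67 were at -0.55, -0.51, -0.52 and -0.55.

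Regulators of cell cycle entry were led by Cdkn2a, the locus of the p16INK4a and ARF tumor suppressors. It stood at 6.39, 6.04 and 6.58 in the controls and 5.52, 5.27 and 5.55 at week 6, a fall of 0.89 ± 0.15 (1.86-fold, adjusted p = 0.0184; muscle-adjusted -0.80). Ccnd1, cyclin D1, which drives cells out of G1, was 10.88, 10.86 and 10.81 against 10.26, 10.35 and 9.87, a fall of 0.69 (adjusted p = 0.0296; muscle-adjusted -0.57). An inhibitor and an activator of the same kinases were thus both lower. These were the 2 of 25 genes called in this list, a share near the 8.83% of all genes, and the list median was -0.20.

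Among vessel genes more were lower than higher. Of 44 endothelial genes 8 were called lower and 1 higher, 34 were below 0 and 10 above, and the median was -0.31. Plvap, which forms the diaphragms of fenestrated vessels, was 10.66, 10.43 and 10.42 in the controls and 9.71, 9.77 and 9.90 at week 6, a fall of 0.71 ± 0.11 (adjusted p = 0.0184). Sele, E-selectin, which catches leukocytes on inflamed vessels, was 4.82, 4.79 and 4.91 against 3.96, 3.84 and 4.2, a fall of 0.84 (adjusted p = 0.0301). The endothelial factor gene Sox7 fell by 0.77 and Clec14a by 0.64. Esm1, a proteoglycan secreted by endothelial tip cells, rose by 0.68 (adjusted p = 0.0209), with 5.85, 5.96 and 5.74 against 6.51, 6.65 and 6.42. Muscle-adjusted, Plvap, Sele, Sox7 and Clec14a were at -0.79, -1.0, -0.59 and -0.75 and Esm1 at 0.52, and the list median was -0.38. With the GAPDH value as covariate the list median was -0.11. In the fibroblast and matrix list 1 of 57 genes was called, the matrix glycoprotein gene Tnc (-0.90), with a list median of -0.18 that turned to 0.16 with the GAPDH value. Smooth muscle genes had a median of -0.05, neural and Schwann genes -0.04 and mast cell genes -0.12, and these lists held 1, 3 and 1 called genes.

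Skeletal muscle contractile genes were higher at week 6 in 57 of 58 cases, with a median of 0.62, and 43 of the 58 were higher without overlap between groups. Only Casq2, the calsequestrin of slow and cardiac muscle, was called, at 9.69, 10.45 and 9.98 against 10.96, 10.92 and 11.19 (0.98 ± 0.27, adjusted p = 0.0464). Without the week 15 arrays 31 of the 58 were called higher. The median change was 0.97 over 12 slow-fiber genes and 0.31 over 14 fast-fiber genes, a difference that was not tested. The slow-fiber score overlapped between groups, at 9.14, 9.53 and 9.96 in the controls and 10.49, 9.90 and 10.72 at week 6. Of the slow-fiber genes 6 were higher without overlap, and of the fast-fiber genes 9. Mean control scores were 9.54 for slow and 12.56 for fast fibers. The lowest and highest members of the contractile list, the myosin heavy chains Myh1 (-0.38, fast fibers) and Myh7 (2.00, slow fibers), were named after their values were seen and were not called. Acta1 was at 0.04 ± 0.13, with values at the top of the table's range. Tpm3, a tropomyosin that slow fibers and non-muscle cells both use, fell by 0.82 (adjusted p = 0.0187) in the probe set used, 1 of 12 for this gene, whose changes ran from -0.82 to 0.56. With the muscle score as covariate the contractile list had a median of -0.09, which follows from the construction of the score, and with the GAPDH value 0.24.

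Regulators of muscle mass and synapses were mostly higher. Of 37 genes in this list 9 were called higher and 1 lower, with a median of 0.60 (muscle-adjusted 0.28, with the GAPDH value 0.38). In sign, 30 were above 0 and 7 below. Without the week 15 arrays 23 of the 37 were called higher. Mstn, myostatin, the secreted inhibitor of muscle growth, was 4.62, 5.55 and 4.23 in the controls and 6.85, 6.48 and 6.05 at week 6 (1.66 ± 0.29, 3.16-fold, adjusted p = 0.0203). Fbxo32, atrogin-1, the ubiquitin ligase of muscle atrophy, stood at 5.89, 6.67 and 5.92 against 7.15, 7.28 and 7.64 (1.20 ± 0.22, adjusted p = 0.021). Control replicate 2, the control with the highest muscle score, was also the highest control for both. The myosin light chain kinase gene Mylk3 rose by 1.28, Asb2, a ubiquitin ligase subunit of muscle, by 0.88 and Chrne, the adult subunit of the muscle acetylcholine receptor, by 0.72. Muscle-adjusted, Fbxo32 was at 1.17 and Mstn at 1.37, neither called (adjusted p = 0.116 for both), while Mylk3, Asb2 and Chrne were at 0.59, 0.50 and 0.35. Beside the GAPDH value Fbxo32 was at 0.58 (adjusted p = 0.405) and Mstn at 1.19 (adjusted p = 0.396).

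Energy-sensing and glycogen genes of muscle type were mostly higher. In this list 6 of 33 genes were called higher and 0 lower, with a median of 0.58. Prkab2, the beta 2 subunit of the energy sensor AMP-activated kinase, was 5.73, 6.28 and 5.76 in the controls and 7.04, 7.17 and 7.48 at week 6 (1.31 ± 0.18, 2.47-fold, adjusted p = 0.0147; second probe set 0.23, not called). Prkaa2, its alpha 2 catalytic subunit, was 7.88, 8.65 and 8.29 against 9.37, 9.53 and 9.41 (1.16 ± 0.24, adjusted p = 0.0236). Both are the forms that predominate in skeletal muscle, and the more widely expressed Prkab1 and Prkaa1, named after their values were seen, were at -0.28 and 0.21 and were not called. The phosphorylase kinase subunits Phkg1 and Phkb, which start glycogen breakdown, rose by 1.30 and 0.82 and the muscle fructose bisphosphatase gene Fbp2 by 1.17. The muscle-adjusted median was 0.13 and that with the GAPDH value 0.34, and muscle-adjusted Prkab2, Prkaa2, Phkg1, Phkb and Fbp2 were at 1.04, 0.72, 0.56, 0.49 and 0.73.

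The mitochondrial breakdown of branched-chain amino acids gave many calls: 14 of 23 genes were called higher and 0 lower. The list median was 0.45, and its score was 9.23, 9.29 and 9.17 in the controls against 9.61, 9.61 and 9.67 at week 6. Bckdha, the alpha subunit of the dehydrogenase that commits these amino acids to oxidation, was 8.49, 8.43 and 8.28 against 9.02, 9.04 and 9.17 (0.68 ± 0.11, adjusted p = 0.0185), although its second probe set was at -0.03. Aldh6a1, which oxidises the valine and thymine breakdown product methylmalonate semialdehyde, was 8.46, 8.84 and 8.63 against 9.37, 9.41 and 9.59 (0.81 ± 0.12, adjusted p = 0.0164). Further steps rose as well, with Dld, the lipoamide dehydrogenase shared by the 2-oxoacid dehydrogenase complexes, at 0.60, Acad8 of the valine branch at 0.59 and Auh of the leucine branch at 0.59. In this list the change was nearly as large beside the muscle score: the muscle-adjusted median was 0.38, and Bckdha, Aldh6a1, Dld, Acad8 and Auh were at 0.59, 0.77, 0.54, 0.36 and 0.47. The median with the GAPDH value was 0.32.

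Of 39 fatty acid oxidation genes 17 were called higher and 0 lower, with a median of 0.46 (muscle-adjusted 0.39). In sign, 35 were above 0 and 4 below. Acadsb, the acyl-CoA dehydrogenase for short branched chains, showed the largest rise of any called gene, from 4.58, 5.68 and 4.98 to 6.59, 6.56 and 7.23 (1.72 ± 0.31, 3.29-fold, adjusted p = 0.0209). It also works on isoleucine, so it stands between this group and the last. Cd36, the fatty acid transporter, was 8.25, 8.76 and 8.24 against 9.41, 9.20 and 9.86 (1.07 ± 0.22, adjusted p = 0.0241). Crat, carnitine acetyltransferase, rose by 0.85, and Lpl, the lipase that frees fatty acids from blood lipoproteins, and Esrrg, a nuclear receptor of oxidative metabolism, each by 0.75. Muscle-adjusted, these were 1.51 for Acadsb, 0.78 for Cd36, 0.39 for Crat, 0.33 for Lpl and 0.41 for Esrrg. Beside the GAPDH value the list median was 0.29, and Acadsb was at 0.76 (adjusted p = 0.288) and Cd36 at 0.52. Cpt1b, the muscle form of the carnitine palmitoyltransferase that admits fatty acids to mitochondria, was at 0.92 and its liver form Cpt1a at -0.51. Both were named after their values were seen and neither was called.

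All 22 genes of the tricarboxylic acid cycle list were higher at week 6 without overlap between groups, and 13 were called. The median was 0.46, and the changes ran from 0.21 to 0.96. Without the week 15 arrays 18 of the 22 were called. Sdha, the flavoprotein of succinate dehydrogenase, was 11.38, 11.57 and 11.32 in the controls and 11.90, 11.93 and 11.94 at week 6 (0.50 ± 0.11, adjusted p = 0.0271). Sucla2, a subunit of succinyl-CoA synthetase, rose by 0.69, Pdhx, of the pyruvate dehydrogenase complex, by 0.61 and Ogdh, of the oxoglutarate dehydrogenase complex, by 0.53. In the respiratory chain list 7 of 79 genes were called higher and 0 lower, while 67 of 79 were higher without overlap (median 0.29). The complex I genes Ndufs1 (0.72), Ndufs3 (0.52) and Ndufa8 (0.50) and the complex III gene Uqcrc2 (0.59) were among those called. Muscle-adjusted medians were 0.30 for the cycle and 0.14 for the chain (0.27 and 0.15 with the GAPDH value), and muscle-adjusted Sdha, Sucla2, Pdhx and Ogdh were at 0.39, 0.55, 0.49 and 0.30.

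Mitochondrial ribosome genes, which build the machinery that translates mitochondrial DNA, were mostly higher by small amounts. Of 73 genes 68 were above 0, 17 were called higher and 0 lower, and 48 were higher and 2 lower without overlap, with a median of 0.20 and changes from -0.27 to 0.53. Mrps5 was 9.04, 9.16 and 9.09 in the controls and 9.59, 9.67 and 9.61 at week 6 (0.53 ± 0.09, adjusted p = 0.0184). Mrpl50 (0.53), Mrpl42 (0.51), Mrpl16 (0.50) and Mrps28 (0.47) followed it. The muscle-adjusted median was 0.21, as large as without the covariate, and Mrps5 was at 0.56. With the GAPDH value the median was 0.16. The cytosolic ribosome differed in sign, with 0 of 48 genes called, 43 below 0 and a median of -0.18; a difference between the 2 lists was not tested.

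**Figure D5:**
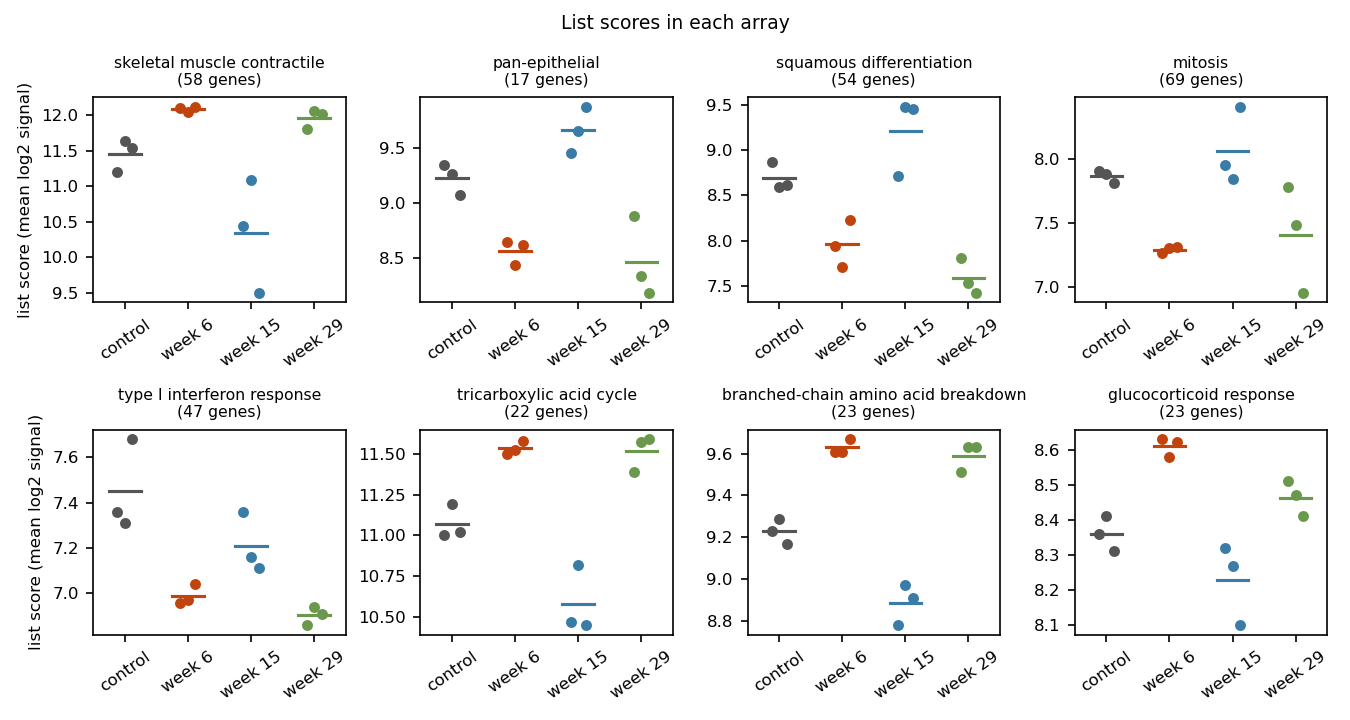
Score of 8 gene lists (mean log2 signal of their genes) in each of the 12 arrays, with group means as lines. Week 6 scores lie apart from the controls in all 8 panels. Week 29 means lie on the same side of the control mean as week 6, also in all 8. The week 15 scores of muscle and of mitochondrial pathways lie below every control.

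Of 23 glucocorticoid-responsive genes 6 were called higher and 1 lower, with a median of 0.25 (muscle-adjusted 0.21). In sign, 17 were above 0 and 6 below. Hsd11b1, the enzyme that regenerates active corticosterone inside cells, was 10.06, 10.41 and 9.65 in the controls and 11.29, 11.28 and 11.24 at week 6 (1.23 ± 0.32, 2.35-fold, adjusted p = 0.0398). The SD of its week 6 values was 0.02. Cebpd, an acute-phase transcription factor, rose by 0.75, Klf15, a factor of amino acid catabolism, by 0.67, the mineralocorticoid receptor gene Nr3c2 by 0.65, the glutamine synthetase gene Glul by 0.64 and Tsc22d3, the leucine zipper GILZ, by 0.54. The member called lower was the metallothionein gene Mt2A (-0.59). Muscle-adjusted, Klf15 was at 0.67, Cebpd at 0.63, Hsd11b1 at 0.61, Nr3c2 at 0.43, Tsc22d3 at 0.34 and Glul at 0.33, so Hsd11b1 and Glul moved most with the covariate. In the circadian clock list Rora, a nuclear receptor of the clock, rose by 0.72 (muscle-adjusted 0.73), and Tsc22d3 was the other of the 2 called among 24 genes.

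A pair of globin genes rose at week 6. The beta globin gene Hbb was 9.55, 9.54 and 8.76 in the controls and 10.69, 10.51 and 10.62 at week 6 (1.32 ± 0.18, 2.49-fold, adjusted p = 0.015), and the alpha globin gene Hba-a3 rose by 0.51. These were the 2 of 28 erythroid and platelet genes that were called, while 9 of the 28 were below 0 and the list median was 0.10. Globin genes share sequence, so their probe sets may share signal. The muscle-adjusted changes were 1.41 and 0.40. Whether blood left in the tissue differed between the groups was not tested.

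Among genes that handle NMBA and the DNA damage it causes, calls went in both directions. Cyp2a3, a cytochrome P450 studied as an activator of nitrosamines, was 4.68, 4.29 and 4.39 in the controls and 4.86, 4.52 and 4.84 at week 6 (0.29 ± 0.17, adjusted p = 0.314), with overlap between the groups. Mgmt, the methyltransferase that removes methyl groups from guanine, was 8.0, 7.98 and 7.95 against 8.28, 8.61 and 8.07 (0.34 ± 0.14, adjusted p = 0.147), higher in every week 6 sample but not called. Among 52 alkylation and DNA repair genes 1 was called higher, Alkbh3, a demethylase of alkylated bases (0.50). The exonuclease gene Exo1 (-0.38) was the 1 called lower, and the median was -0.02. The share called was below that among all genes, 8.83%. The p53 target and DNA damage list had 3 genes called higher and 4 lower among 37, a larger share than the 8.83% of all genes, and a median of -0.03. Gadd45a, a p53 target that responds to DNA damage, was 8.41, 9.05 and 8.59 against 9.60, 9.36 and 9.78 (0.90 ± 0.17, adjusted p = 0.0211), and its relative Gadd45g rose by 0.89. The canonical p53 target Cdkn1a, the p21 inhibitor, was 10.58, 10.91 and 10.61 against 10.71, 10.89 and 10.40 (-0.03 ± 0.20, adjusted p = 0.943), with overlap, and its second probe set was at 0.70. The polo kinase gene Plk2 (-0.58), Sesn2 (-0.55) and the checkpoint kinase gene Atr (-0.48) fell. Muscle-adjusted changes of Gadd45a, Gadd45g, Cyp2a3 and Mgmt were 0.77, 0.74, 0.60 and 0.22, and with the GAPDH value Gadd45a was at 0.43.

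Detoxification genes were divided. In the cytochrome P450 and phase II list Cyp27a1, which oxidises sterols (0.68), and Cyp2j4 (0.41) rose, and Ahrr, the repressor of the aryl hydrocarbon receptor, fell by 0.89 ± 0.15, with 6.44, 5.82 and 6.23 against 5.19, 5.15 and 5.48 (adjusted p = 0.0184). The NRF2 and glutathione list had 6 of 51 genes called higher and 1 lower, with a median of -0.15. The glutathione transferase genes Gstm5 (0.81) and Gsta1 (0.76), the mitochondrial peroxide-removing enzyme Prdx3 (0.80) and its reductant Txn2 (0.55) were called higher. Among other members, Nqo1 (-0.64), Gclc (-0.49) and Slc7a11 (-0.81) were named after their values were seen and were not called. In the whole list 22 genes were above 0 and 29 below. Among aldehyde dehydrogenases the folate enzyme gene Aldh1l1 was 8.63, 8.90 and 8.75 against 9.89, 9.93 and 9.83 (1.13 ± 0.16, adjusted p = 0.0147). Beside the muscle score Ahrr was at -0.82, Cyp27a1 at 0.46, Gstm5 at 0.54, Gsta1 at 0.68, Prdx3 at 0.52 and Aldh1l1 at 0.87.

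Growth factor, cytokine and developmental signals gave scattered calls. Fgf7, the keratinocyte growth factor that stromal cells send to epithelium, was 6.36, 6.68 and 6.22 in the controls and 7.20, 7.37 and 7.65 at week 6 (0.99 ± 0.17, 1.98-fold, adjusted p = 0.0187). Jun, an AP-1 factor, was 9.93, 10.57 and 10.15 against 11.07, 10.90 and 10.98 (0.77 ± 0.14, adjusted p = 0.0209), Lrig1, a feedback inhibitor of EGF receptors, rose by 0.52 and the receptor gene Erbb2 fell by 0.64. Ptgs2, cyclooxygenase 2, an enzyme of inflammation, was near the bottom of the signal range at 3.02, 3.11 and 3.09 against 3.03, 2.99 and 2.75 (-0.15 ± 0.10, adjusted p = 0.358). In the cytokine and chemokine list 8 of 63 genes were called lower and 2 higher. Among them Nfkbiz, an NF-kappa-B regulator, fell by 0.84 and the chemokine gene Cxcl16 by 0.74. Tnfaip6 and Il15, an interleukin that muscle also makes, rose by 0.94 and 0.70. In the TGF-beta and BMP list Nog, noggin, which binds BMPs, rose by 1.01, and the BMP-induced genes Id1 (-0.92) and Id4 (-0.60) and the SMAD repressor gene Skil (-0.35) fell. Id1 was 9.87, 9.78 and 9.89 against 8.74, 8.72 and 9.30 (adjusted p = 0.0209). The Notch target Hey1 and the Notch-regulated gene Nrarp fell by 0.55 and 0.74, and in the Wnt list Wnt10a (-0.74), the receptor gene Fzd6 (-0.67) and the beta-catenin gene Ctnnb1 (-0.41) fell. These were 2 of 30 Notch genes and 3 of 50 Wnt and hedgehog genes, the only calls in these lists. Both shares lay below the 8.83% of all genes called in either direction and above the 3.76% called lower. Muscle-adjusted, Fgf7 was at 0.87, Jun at 0.64, Nog at 0.60, Id1 at -1.10, Nfkbiz at -0.59, Nrarp at -0.57 and Wnt10a at -0.52.

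Lipid synthesis and stored-fat genes differed by step. In the fatty acid synthesis list 4 of 24 genes were called lower and 2 higher. The acyl-CoA synthetase gene Acsl5 (-0.67), Acly, which makes cytosolic acetyl-CoA (-0.63), and Elovl1, which extends long chains (-0.62), were among those that fell, and Acsl4 (0.72) and Gpam, the first acyltransferase of triglyceride synthesis (0.65), rose. Gpam was 5.02, 5.00 and 5.00 against 5.77, 5.52 and 5.69 and had among the lowest adjusted p-values (0.0147). Plin5, a lipid droplet protein of oxidative tissue, rose by 0.95. Scarb1, the receptor that takes up cholesterol from HDL, fell by 0.69 (adjusted p = 0.0164) and Insig2, which holds back sterol synthesis, rose by 0.38. Muscle-adjusted, Acsl5, Acly, Gpam, Plin5 and Scarb1 were at -0.53, -0.43, 0.64, 0.60 and -0.63.

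Among gene classes, 21 of 212 ubiquitin ligase and F-box genes were called higher and 3 lower, and of 291 solute carriers 14 higher and 6 lower. Several of the ligase genes that rose are subunits made in muscle, Asb18 and Asb11 (0.95 each) and Asb14 (0.89) among them, and Trim45 rose by 1.07. Slc38a4, an amino acid transporter, was 7.90, 8.54 and 7.92 in the controls and 9.24, 9.38 and 9.34 at week 6 (1.20 ± 0.33, adjusted p = 0.0471, muscle-adjusted 0.51), the cation exporter gene Slc47a1 rose by 0.94 and the cationic amino acid transporter gene Slc7a1 fell by 0.77. In the ion channel list 5 of 53 were called higher, including the sodium channel Scn4a (0.68) and the potassium channel Kcnj12 (0.97) of striated muscle, and 5 lower. Of 72 splicing genes 5 were called lower, such as Srsf9 (-0.60) and Hnrnpl (-0.45), and 1 higher. Of 271 zinc finger genes 12 were called higher and 3 lower. Among all genes 5.07% were called higher and 3.76% lower, and the solute carriers and zinc finger genes did not exceed these shares. Muscle-adjusted, Asb18, Asb11, Asb14 and Trim45 were at 0.52, 0.55, 0.47 and 0.66 and Kcnj12 at 0.55.

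Of the remaining genes with the largest changes or the lowest p-values, several were dim. Amy1, amylase, was 4.67, 5.36 and 4.74 in the controls and 6.23, 6.27 and 6.24 at week 6 (1.32 ± 0.19, adjusted p = 0.0164, muscle-adjusted 1.03). Vtcn1, the T cell inhibitory ligand B7-H4, was 4.87, 5.31 and 4.76 against 5.95, 6.40 and 6.57 (1.32 ± 0.22, adjusted p = 0.0184, muscle-adjusted 1.02). Fam13a (1.34), Chrdl2, a BMP-binding protein (1.30), Rapgef1, a guanine nucleotide exchange factor (1.28), Sel1l3 (0.95) and Tceal1 (0.93) rose too. The second probe set of Rapgef1 was at -0.17. Prnd, a homologue of the prion protein, was 5.44, 5.38 and 5.49 against 4.52, 4.34 and 4.50 (-0.98 ± 0.13, adjusted p = 0.0147, muscle-adjusted -0.96), and Ttpa, the vitamin E transfer protein, fell by 0.69 (adjusted p = 0.0147, muscle-adjusted -0.69). Ngfr, the low-affinity neurotrophin receptor, which marks Schwann cells and some basal keratinocytes, was 6.15, 6.27 and 6.04 against 5.50, 5.19 and 5.22 (-0.85 ± 0.12, adjusted p = 0.0147, muscle-adjusted -0.80). Hdc, histidine decarboxylase, which makes histamine in mast cells, rose by 0.79 and was the only one of 18 mast cell genes called.

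In the late stage the muscle score was also above every control, at 11.80, 12.06 and 12.02 in the 3 week 29 samples. Between week 29 and week 6 limma called 0 of 31042 probe sets (0%), with 3005 at an unadjusted p under 0.05 and a lowest adjusted p of 0.172. The same comparison gave 363 calls when each array was weighted by its quality, 243 higher and 120 lower, and 6 after subtraction of the pan-epithelial score. Irf8 stood at a mean of 6.59 at week 29, against 7.23 at week 6 and 8.36 in controls, and the week 29 minus week 6 difference of -0.64 was not called. Tgm1 and Krt6c were 0.79 and 0.90 lower in week 29 than in week 6 and Foxe1 was 1.04 higher, also without a call. Genes whose levels at week 29 lay within 0.10 of week 6 included Mx1 (-0.05), Isg15 (0.05), Bckdha (-0.06), Sdha (-0.06), Hsd11b1 (0.06) and Aldh1l1 (0.05). These statements describe means of 3 samples, and a difference that was not called does not show that the stages were alike.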

How the data were processed

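RNA of 12 rat esophagus samples was measured on an Affymetrix array, 1 array per sample. The submitters' processing notes name Affymetrix Expression Console, with which the authors made the deposited log2 probe set signals. The sources used here do not say how probes were summarized or whether signals were filtered. The log2 scale was read from values between 2.49 and 14.71. No detection calls were used, so the number of arrays limits the precision. The table held 31099 probe sets, and all but 57 array controls, 31042, entered the tests. The platform annotation gave 1 symbol to 20826, several to 436 and did not list 9780 (given no name). The probe set whose mean was highest across the 12 arrays stood for each of 14217 genes.

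Values were used as deposited. limma 3.58.1 in R 4.3.3 (lmFit, eBayes, two-sided) fitted 4 groups to 12 arrays with 8 residual degrees of freedom, since all groups then share 1 estimate of the spread. Benjamini-Hochberg adjustment ran over the 31042 p-values. Errors are the SE of a change or the SD of 3 arrays. An exact permutation test of 3 against 3 cannot go below 0.1 and was not used. No pair of arrays was identical. The fit was tested on simulated data for this comparison over 31042 probe sets: of 50 probe sets given each size of change, 42% were recovered at 1.5-fold, 84% at 2-fold, 100% at 3-fold and 98% at 4-fold. False calls made up 10 of 172. Whether these figures hold for the measured arrays, whose quality weights ran from 0.47 to 2.76, was not tested.

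The comparison and the gene lists were chosen with earlier results of these data known. Named genes are the 12 largest called rises and falls and the 10 lowest p-values without overlap between groups, up to 5 called members of a list with 3 or more called (otherwise all called members), and Acta1, Krt13, Krt14, Mki67, Ptgs2, Cdkn1a, Mgmt and Cyp2a3, 212 in all, with provisional symbols skipped among the largest changes and lowest p-values. Between weeks 29 and 6 the 5 largest called rises and falls were to be named, and there were none. Promoters are RefSeq's (GRCr8). Alternatives were other array sets, scalings, covariates, a filter on dim signal, limma's options and the replicate number as a block.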

Additional observations from a re-analysis of the deposited data

Results flagged for a closer look

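Scores of 20 gene lists lay beyond all 3 controls on one side at week 6 and beyond all 3 controls on the other side at week 15. A score is the mean log2 signal of a list, and the values here are the week 15 minus control differences of the group means. The differences between the weeks were not tested.

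Above the controls at week 6 and below them at week 15 were the muscle lists, with week 15 differences of -1.12 for skeletal muscle contractile genes, -0.81 for fast fiber genes, -0.76 for myogenic regulators and -0.59 for glycogen and AMPK genes. The mitochondrial lists behaved alike, at -0.49 for the tricarboxylic acid cycle, -0.40 for the respiratory chain, -0.34 for branched-chain amino acid breakdown and -0.31 for fatty acid oxidation. Ion channel genes were at -0.33, protease and angiogenesis genes at -0.22, autophagy and lysosome, hypoxia and glycolysis, and circadian clock genes at -0.17 each, and heat shock and ubiquitin ligase genes at -0.15 each.

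Below the controls at week 6 and above them at week 15 were the stress keratin and alarmin list (0.54), the pan-epithelial list (0.43), the EGFR ligand and AP-1 list (0.20), the tight and adherens junction list (0.18) and the solute carriers (0.05). The muscle score moved with all of these: it was above every control at week 6 and between 9.50 and 11.09 at week 15, below every control. Its part in the other lists' differences was not tested.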

How the results depend on the processing

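The count of probe sets called between week 6 and control (2342) moved to 4391 in a fit of the 6 compared arrays alone, to 4028 without the week 15 arrays, to 6909 with array weights, to 207 with a 2-fold minimum (183 higher, 24 lower), to 8 with the GAPDH value as covariate and to 0 with the muscle score, in all 12 arrays (5420 at an unadjusted p under 0.05) or, added after seeing the data, in the 6 arrays alone (2535). Leaving out 1 array gave 1 to 3454 calls, and with the week 15 arrays left out as well (also added later) 1225 to 3718. Without week 29 replicate 2 it was 1377. The lists and genes behind these counts kept their direction in each fit that left out a compared array, except Cdkn1a and lists with medians near 0. Median centring, quantile normalization, a minimum mean signal of 6, an intensity trend, robust variances and leaving out the week 29 arrays gave 2078 to 2804 calls. The share called higher was 67.7%, and 74.8% after median centring, 55.3% with array weights and 99.9% after subtraction of the pan-epithelial score, which gave 21648 calls. Deviations of same-numbered samples correlated at r = -0.07, 0.29 and 0.08 for the 3 pairs. Of the controls, 2 correlated best with their own number. So few pairs cannot show whether the numbers pair the samples. The fit with the replicate block gave 2420 calls. Between week 29 and week 6, 0 calls became 363 with array weights (243 higher, 120 lower) and 6 with the pan-epithelial score, and stayed at 0 in each fit that left out an array. By construction, subtracting the pan-epithelial score put these log2 changes above 0: Acly 0.03, Atr 0.17, Cars1 0.36, Cdc45 0.08, Cdkn1a 0.63, Cenpn 0.06, Clec14a 0.02, Ctnnb1 0.24, Cxcr3 0.06, Dnmt1 0.21, E2f8 0.04, Eif2ak3 0.19, Elovl1 0.04, Erbb2 0.02, Exo1 0.27, F11r 0.05, Fxyd5 0.01, Gimap4 0.14, Gimap5 0.16, Hey1 0.11, Hist3h2ba 0.14, Hnrnpl 0.20, Id4 0.06, Krt13 0.18, Mcm10 0.23, Mmp14 0.22, Mt2A 0.07, Ndrg1 0.20, Nectin4 0.03, Nefh 0.27, Nrp2 0.07, Plk2 0.07, Psmb8 0.08, Ptgs2 0.51, Sdf2l1 0.10, Sesn2 0.11, Sf3b4 0.20, Skil 0.31, Snrpf 0.13, Srsf9 0.06, Tyms 0.12 and Zfp36l1 0.09. Other reversals were Acta1 at 0 under quantile normalization and at -0.19 with the muscle score, Cars1 at 0.01 as the mean of its probe sets, and Cdkn1a at 0.33 as such a mean, at 0.04 with array weights, and from -0.14 to 0.10 when 1 array was left out (above 0 without control replicate 2, 0.07, and without week 6 replicate 3). The cause of these moves was not tested. Signal over background was not assessed.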

Other observations

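The shares of called probe sets rose with signal. Of 3675 probe sets with a mean log2 signal up to 4, 0.245% were called higher and 0.109% lower, against 9.09% and 4.11% of 6404 between 8 and 10. Of the 55 named genes with more than 1 probe set, 42 had probe sets that all changed in the same direction.

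Of the 2342 calls, 816 were also made in each of the 6 fits that left out the week 15 arrays and 1 compared array (637 higher, 179 lower). They cover 386 genes, 91 of them picked by the naming rule. By list, 9 of 39 fatty acid oxidation genes, 7 of 23 branched-chain amino acid genes, 7 of 47 type I interferon genes, 6 of 22 tricarboxylic acid cycle genes and 6 of 54 squamous differentiation genes were called in each of these fits, but 0 of 69 mitosis genes. These fits were chosen after seeing the data.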
